A study of Mus musculus with 6 samples.

Results

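*Susd2*, *Tcerg1l*, *Fam19a4*, *Tmem91*, *Tmem54*, *Dpyd*, *Ppp1r36* and *Adprhl1* are 8 of the 24421 genes in the count table of sorted alveolar type II cells (AT2s). They were chosen by name as genes outside the usual lists of BMP targets whose counts were much larger in all 3 libraries of cells with an active BMP receptor, so the difference between the groups in these genes is how they were selected and is given as a description without a test. Cells of the first group, AT2-CTRL, came from mice of genotype *Sftpc-CreERT2*/+; *R26-tdTomato*/+ aged 12, 16 and 12 weeks for replicates 1, 2 and 3. Cells of the other group, AT2-CAB, came from *Sftpc-CreERT2*/+; *R26-tdTomato*/*R26-caBmpr1a* mice aged 16, 12 and 12 weeks, in which the second *Rosa26* allele encodes a constitutively active BMPR1a. All 6 mice were on a C57BL/6 background and carried the tamoxifen-dependent Cre under the *Sftpc* locus, which is active in AT2s, and the tdTomato allele that labels recombined cells. From staining of organoids, the study inferred that the larger colonies came from cells that had recombined tdTomato and not caBmpr1a. If sorted cells did so too, an AT2-CAB library would mix cells with and without the active receptor, which was not tested. In these bulk libraries more cells expressing a gene cannot be told apart from more RNA of it per cell.

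BMP ligands assemble type I and type II receptors, and the activated type I receptor, such as BMPR1a, phosphorylates SMAD1, SMAD5 and SMAD8. These enter the nucleus with SMAD4 and raise transcription of direct targets that include the *Id* genes and the inhibitory *Smad6* and *Smad7*. In the adult lung alveolus, AT2s secrete surfactant and act as stem cells for the flat type I cells (AT1s) of the gas exchange surface. SMAD1 and SMAD5 are known to bind GC-rich elements such as GGCGCC, which reads the same on both strands, and the 8 genes were therefore searched for these letters from 250 bases before to 50 bases after the annotated start (RefSeq, GRCm38.p6). A promoter sequence was matched for 7 of the 8 genes, with *Fam19a4* listed as *Tafa4*, and *Susd2* was not matched. GGCGCC was present in 4 of the 7. The stretches that hold it are shown 5′ to 3′ with the match in capitals, because these letters were found near the start of each of the 4 genes. For *Fam19a4* and *Tmem54* the stretch runs from 250 to 11 bases before the start, and for *Ppp1r36* and *Tcerg1l* it is the 30 bases around the match.
Fam19a4, chr6:97060422-97060661, minus strand: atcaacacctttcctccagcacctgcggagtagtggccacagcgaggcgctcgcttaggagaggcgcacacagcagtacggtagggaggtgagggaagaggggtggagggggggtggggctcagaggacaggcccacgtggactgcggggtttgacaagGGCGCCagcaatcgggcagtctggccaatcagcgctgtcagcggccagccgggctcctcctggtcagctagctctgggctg
Tmem54, chr4:129105280-129105519, plus strand: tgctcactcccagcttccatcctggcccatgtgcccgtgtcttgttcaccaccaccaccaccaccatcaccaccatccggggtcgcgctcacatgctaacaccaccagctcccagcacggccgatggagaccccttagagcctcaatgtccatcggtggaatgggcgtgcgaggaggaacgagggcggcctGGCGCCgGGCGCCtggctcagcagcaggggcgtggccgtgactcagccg
Ppp1r36, chr12:76417569-76417598, plus strand: ccccgcccctccGGCGCCagccggacggcg
Tcerg1l, chr7:138397681-138397710, minus strand: gccggcccgcacctcgGGCGCCcgccgccc

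The match began 91 bases before the start of *Fam19a4*, 18 bases before that of *Ppp1r36* and 36 bases after that of *Tcerg1l*. *Tmem54* held 2 copies, which began 59 and 52 bases before the first of its annotated starts, or 77 and 70 bases before the other, and were separated by a single base. These letters are common: 11.9% of all 32851 promoters of this length held them, and 30.9% of the 9690 promoters with a GC content of at least 60%. The GC content was 66.7% for *Fam19a4*, 69.0% for *Tmem54*, 64.0% for *Ppp1r36* and 73.0% for *Tcerg1l*, against a median of 52.7% over all promoters. The promoters of *Tmem91* (55.3%), *Dpyd* (58.3%) and *Adprhl1* (57.3%) had a lower GC content and did not hold GGCGCC in this window. The related letters GGAGCC, searched on both strands, were found for *Tcerg1l*, *Fam19a4* and *Ppp1r36* and in 30.8% of all promoters. The palindrome GTCTAGAC was found in 0 of the 7 and in 0.213% of all promoters. Longer elements that join GGCGCC or GGAGCC to GTCT after a short gap were also found in 0 of the 7, and in 0.0731% and 0.131% of all promoters. On the list of BMP targets, GGCGCC was held by the promoters of *Id2*, *Id4*, *Smad9* and *Grem1*, which were 4 of the 9 that could be matched. GGAGCC was found for 7 of the same 9, GTCTAGAC for *Smad6* alone and the longer elements for 0. Counted by gene, GGCGCC was held by 13.4% and GGAGCC by 33.5% of all 27025 genes.

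Libraries held between 21554249 and 28440227 counts, so that 1 CPM (counts relative to the library total, scaled by edgeR's TMM method) stood for 21.8 to 30.7 counts and 3 counts, the limit set by a count of 0, for 0.0976 to 0.138 CPM. Intervals and limits cover counting error only. Going by the file headers, both reads of a pair were counted, and the low counts are then less precise than they appear. AT2-CTRL replicate 1 and AT2-CAB replicate 3 carried 3935 and 4494 counts on Y-linked genes and the other 4 libraries carried 0. *Sftpc*, which encodes surfactant protein C and defines AT2s, was at 42700 to 60120 CPM in AT2-CTRL and 42840 to 45460 CPM in AT2-CAB. *Bmpr1a* itself had 2351, 3031 and 3274 counts in AT2-CTRL and 2860, 3311 and 2975 in AT2-CAB. Whether transcripts of the *caBmpr1a* allele are counted there is not given in the sources used here.

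All 8 genes had higher CPM in each AT2-CAB library than in every AT2-CTRL library, which the choice of genes fixes. Among all 16723 genes tested, 7.0% (1171 genes) showed this separation. edgeR's quasi-likelihood test called 0.227% of all genes higher (adjusted p under 0.05 and log2 fold change over 1) and 0.239% in either direction. It called 6 of the 8, the exceptions being *Ppp1r36* and *Adprhl1*, from which nothing is read because the genes were chosen on the same contrast. Of the separated genes, 38 had a log2 fold change at least as large as the smallest of the set, that of *Dpyd*, and 30 of these are not in the set, of which 4 are on the BMP target list. The genes just below *Dpyd* (2.30) were *1700003D09Rik* (2.30), *Speer3* (2.29) and *Stk32a* (2.29).

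**Figure D1:**
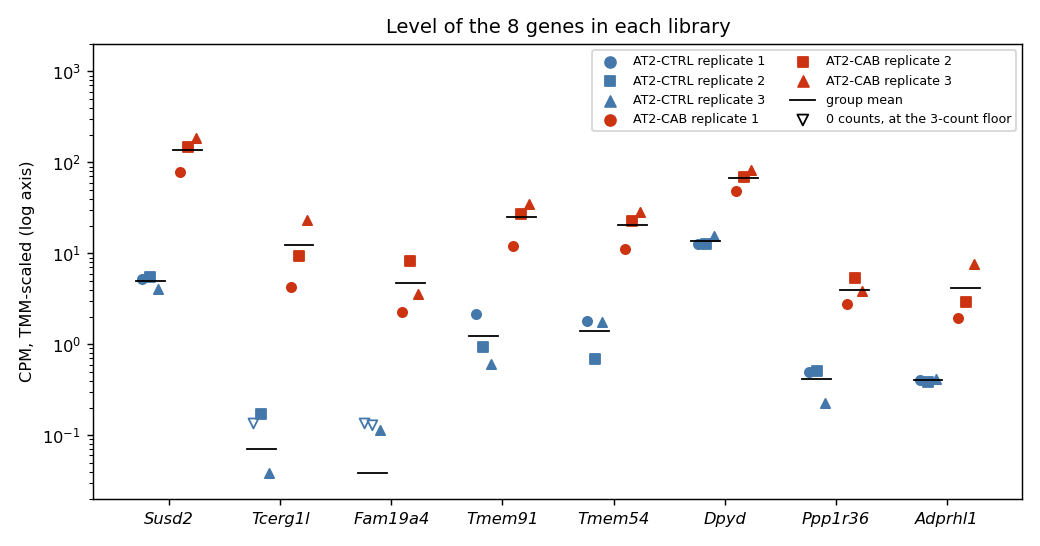
Level of each gene in CPM, scaled by TMM, on a log axis, with 1 point for each of the 3 AT2-CTRL (blue) and 3 AT2-CAB (red) libraries and a line at the group mean. Open triangles mark libraries with 0 counts, drawn at the level of 3 counts. For all 8 genes the red points lie above the blue, with the widest gap for *Tcerg1l* (lowest AT2-CAB value 24.6 times the highest AT2-CTRL value) and the narrowest for *Dpyd* (3.17 times).

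*Susd2*, on chr10:75636619-75644008 (mm10, minus strand), encodes a cell surface protein with a sushi domain that is used as a marker to isolate mesenchymal stem cells of the endometrium. Its counts were 116, 129 and 106 in AT2-CTRL replicates 1 to 3 and 1707, 3844 and 5687 in AT2-CAB replicates 1 to 3. The AT2-CTRL libraries lay close together, and even the lowest AT2-CAB library was 14.2 times the highest of them. Mean levels were 4.92 ± 0.785 and 137.5 ± 54.4 CPM (SD, n = 3), a log2 fold change of 4.81 ± 0.34 (SE). Per kb of transcript *Susd2* was the highest of the 8 in AT2-CAB, at 42.2 ± 16.7 RPKM (CPM per kb; SD), which exceeded 91.2% of all tested genes in that group against 32.9% in AT2-CTRL.

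*Fam19a4*, on chr6:96831209-97060411 (minus strand), encodes TAFA4, a secreted chemokine-like protein known from sensory neurons, where it modulates pain. It was essentially without reads in AT2-CTRL, with 0, 0 and 3 counts, and had 50, 210 and 110 counts in AT2-CAB. The limit of 3 counts stood for 0.135 and 0.129 CPM in replicates 1 and 2, so the AT2-CTRL level could not be measured at this depth. In AT2-CAB the mean was 4.67 ± 3.08 CPM (SD, n = 3). The ratio of summed counts, scaled for depth, was 113 with a counting interval from 38.4 to 552. The fitted log2 fold change of 6.67 ± 0.97 (SE) rested on the 3 reads of 1 control library: without AT2-CTRL replicate 3 the fit gave 9.86, a value set by the prior count, and without AT2-CAB replicate 2 it gave 6.01.

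Of the membrane proteins, *Tmem91* belongs with the interferon-induced *Ifitm* genes to the CD225 family, and little is known of its role. It lies on chr7:25669140-25675166 (minus strand) and had 48, 22 and 16 counts in AT2-CTRL and 266, 704 and 1073 in AT2-CAB. The control libraries were uneven, and the first was the highest. Mean levels were 1.24 ± 0.812 and 24.8 ± 11.6 CPM (SD, n = 3), with a log2 fold change of 4.35 ± 0.53 (SE) that became 5.0 without AT2-CTRL replicate 1. Per kb it reached 28.3 ± 13.2 RPKM in AT2-CAB, second to *Susd2*. GENCODE places exons of *Exosc5* on the opposite strand over 150 bases (17.1%) of the exons of *Tmem91*. The counting did not use strand, so reads of these genes cannot be told apart there. *Exosc5*, an exosome subunit, had 522, 356 and 408 counts in AT2-CTRL and 428, 540 and 727 in AT2-CAB, with overlapping groups and a log2 fold change of 0.25 ± 0.19 (SE).

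*Tmem54*, on chr4:129105530-129111626 (plus strand), encodes a multi-pass membrane protein of little-known function. Counts were 40, 16 and 46 in AT2-CTRL and 243, 583 and 866 in AT2-CAB. Here the second control library was the low one, and the lowest AT2-CAB library was 6.21 times the highest control. The means were 1.41 ± 0.628 and 20.7 ± 8.69 CPM (SD, n = 3), with a log2 fold change of 3.87 ± 0.44 (SE). Its last exon bases overlap *Hpca*, a neuronal calcium sensor on the opposite strand, over 57 bases (4.88% of the exonic length), and reads there were left out of both counts.

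*Dpyd* is the best known of the 8. It encodes dihydropyrimidine dehydrogenase, the rate-limiting enzyme of uracil and thymine breakdown, which also inactivates the drug 5-fluorouracil. It spans 870.7 kb on chr3:118562178-119432918 (plus strand). Counts were 281, 296 and 406 in AT2-CTRL and 1070, 1792 and 2521 in AT2-CAB. This was the only gene of the set with over 200 counts in every control library, and its AT2-CTRL level per kb, 3.06 ± 0.367 RPKM (SD, n = 3), was the highest of the 8. It had the smallest log2 fold change, 2.30 ± 0.20 (SE), from 13.6 ± 1.63 to 66.9 ± 16.7 CPM (SD), and the narrowest relative spread among the AT2-CAB libraries (coefficient of variation 24.9%).

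*Ppp1r36*, on chr12:76417599-76439491 (plus strand), encodes a regulatory subunit of protein phosphatase 1 known from testis. It had 11, 12 and 6 counts in AT2-CTRL and 60, 137 and 117 in AT2-CAB, or 0.412 ± 0.159 and 3.96 ± 1.29 CPM (SD, n = 3). With so few control reads, the 95% exact Poisson interval of the third library alone ran from 2.20 to 13.1 counts. The ratio of summed counts was 9.94 with a counting interval from 6.79 to 15.1, and the log2 fold change was 3.26 ± 0.49 (SE).

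*Adprhl1*, on chr8:13235662-13254162 (minus strand), encodes a relative of the ADP-ribosylhydrolases that is thought to lack enzyme activity and is known from the developing heart. Counts were 9, 9 and 11 in AT2-CTRL and 42, 75 and 234 in AT2-CAB. The controls were nearly equal, while AT2-CAB replicate 3 stood well above replicates 1 and 2. The means were 0.403 ± 0.0165 and 4.15 ± 3.04 CPM (SD, n = 3), and the log2 fold change of 3.35 ± 0.60 (SE) became 2.61 without AT2-CAB replicate 3.

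The role of *Tcerg1l* is little known. It lies on chr7:138208972-138397730 (minus strand). Counts were 0, 4 and 1 in AT2-CTRL and 92, 241 and 713 in AT2-CAB. The gene was near the limit of detection in controls, where the interval for replicate 2, the highest, ran from 1.09 to 10.2 counts, and it reached the level of a mid-range gene in AT2-CAB, above 49.1% of all tested genes per kb. The ratio of summed counts was 192 with a counting interval from 82.0 to 593. The fitted log2 fold change was 7.37 ± 0.93 (SE). Its order against that of *Fam19a4* (6.67) rested on 5 and 3 control counts and turned without AT2-CTRL replicate 3 (7.05 against 9.86), without AT2-CAB replicate 3 (6.54 against 6.86) and in the 4 libraries without Y-linked reads (6.04 against 6.37). The value for *Tcerg1l* became 8.91 without AT2-CTRL replicate 2, 6.85 without AT2-CTRL replicate 1 and 6.54 without AT2-CAB replicate 3.

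The 8 genes fell into 2 tiers by level per kb in AT2-CAB. *Susd2* (42.2 RPKM), *Tmem91* (28.3), *Tmem54* (17.7) and *Dpyd* (15.1) formed the upper tier, and neighbours in this order overlapped across libraries. The lower tier held *Tcerg1l* (4.77 RPKM), *Adprhl1* (3.04), *Ppp1r36* (2.72) and *Fam19a4* (2.14), again with overlapping neighbours. Between *Dpyd*, with a lowest library of 11.1 RPKM, and *Tcerg1l*, with a highest of 9.03 RPKM, the ranges did not overlap. In AT2-CTRL the order per kb began with *Dpyd* (3.06 RPKM), then *Susd2* (1.51), *Tmem91* (1.41) and *Tmem54* (1.21), then *Adprhl1* (0.295) and *Ppp1r36* (0.284), and last *Tcerg1l* (0.0272) and *Fam19a4* (0.0175). The ranges did not overlap between these 4 steps and did overlap within each. The same 4 genes thus held the upper places in both groups, with *Dpyd* first in controls and last of the 4 in AT2-CAB.

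The AT2-CAB libraries differed among themselves in the same order for most of these genes. All 8 were lowest in AT2-CAB replicate 1, from the 16-week-old mouse, and 6 were highest in replicate 3, while *Fam19a4* and *Ppp1r36* were highest in replicate 2. Of all tested genes, 27.4% were lowest in replicate 1 and 41.8% highest in replicate 3. Replicate 3 exceeded replicate 1 by 5.50 times for *Tcerg1l*, 3.96 times for *Adprhl1* and 2.37 times for *Susd2*, and by 1.38 times for *Ppp1r36*, the smallest. The median coefficient of variation over the AT2-CAB libraries was 44.4% for the 8 genes, 27.4% for the BMP targets tested and 16.8% for all tested genes. Single values ran from 24.9% to 80.1% for the 8 genes and from 4.69% to 78.4% for the BMP targets tested. The 3 sets also differed in level, with medians in AT2-CAB of 9.92, 39.9 and 4.97 RPKM.

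**Figure D2:**
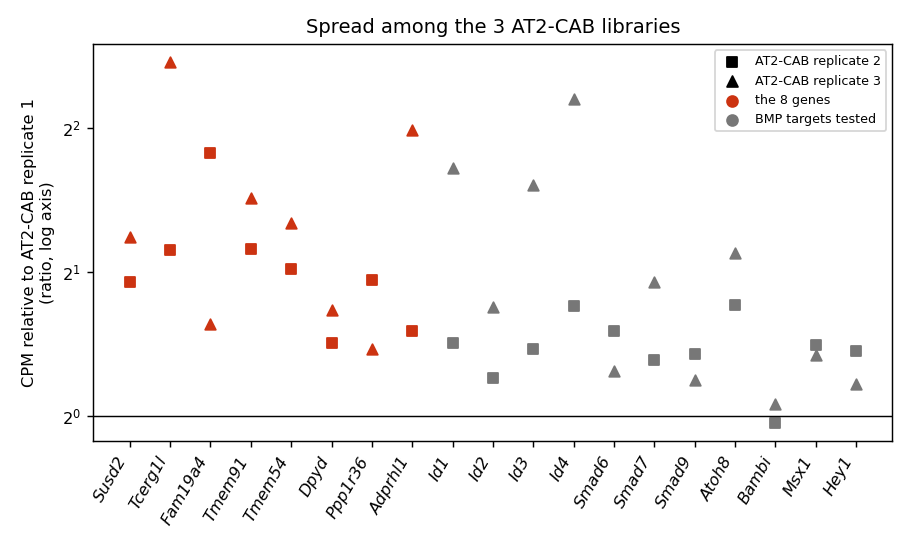
CPM in AT2-CAB replicates 2 (squares) and 3 (triangles) divided by that in replicate 1, on a log axis, for the 8 genes (red) and the 11 BMP targets tested (grey). Every red point lies above 1, and the triangles of *Tcerg1l* (5.50) and *Adprhl1* (3.96) are among the highest.

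Known BMP targets showed this order in part. Of the 14 listed, 11 passed the filter and 10 of these were lowest in AT2-CAB replicate 1. Of the 11, 7 were highest in replicate 3 and 4 in replicate 2. *Id1*, a dominant-negative partner of bHLH factors, had 413, 485 and 504 counts in AT2-CTRL and 2713, 4553 and 12640 in AT2-CAB. *Id3*, of the same family, had 307, 363 and 294 against 3900, 6369 and 16750. *Smad9*, which encodes SMAD8, was flatter across AT2-CAB, with 779, 1241 and 1309 counts, up from 67, 132 and 94. Scaled for depth, its AT2-CAB levels were 35.7, 48.1 and 42.6 CPM, highest in replicate 2. The bHLH factor *Atoh8* had 115, 181 and 136 counts against 1376, 2784 and 4242. In edgeR's quasi-likelihood test 5 of the 11 were called higher, against 0.227% of all genes. These were *Id1* (log2 fold change 3.61), *Id3* (4.58), *Smad6* (1.27), *Smad9* (3.37) and *Atoh8* (4.10). The median over the 11 was 1.33 against -0.0096 over all tested genes. This list was chosen with earlier results of these data known.

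The libraries at the ends of this order also differed in other ways. AT2-CAB replicate 1 was the only AT2-CAB library from a 16-week-old mouse and replicate 3 the only AT2-CAB library with Y-linked reads, so these and the spread cannot be told apart with 1 library each. Without both libraries that carried Y-linked reads, all 8 log2 fold changes kept their sign. Those of *Tcerg1l* (6.04), *Adprhl1* (2.61), *Fam19a4* (6.37), *Susd2* (4.62), *Dpyd* (2.11) and *Tmem54* (3.81) were lower. Those of *Tmem91* (4.72) and *Ppp1r36* (3.48) were higher. In AT2-CAB replicate 1, where the 8 genes were lowest, 9 of 10 AT2 markers were highest of the AT2-CAB libraries. Of 15 immune markers tested, 14 were also highest in that replicate. Their summed level was 2071 to 2764 CPM in AT2-CTRL and 1446, 1284 and 342 CPM in AT2-CAB replicates 1, 2 and 3, most of it from the lysozyme gene *Lyz1* (means of 2213 and 879 CPM). Of the 15, 12 had a positive log2 fold change and 3 a negative one, with a median of 0.57. The leukocyte marker *Ptprc* was at 6.14 to 16.3 CPM in AT2-CTRL and at 32.1, 17.5 and 7.36 CPM in AT2-CAB. Other lists ran in part in the order of the 8 genes. In AT2-CAB replicate 1, 10 of 12 endothelial, 8 of 12 mesenchymal and 8 of 10 pericyte and smooth muscle markers were lowest of the AT2-CAB libraries. In replicate 3, 7 of the 10 pericyte and smooth muscle markers and 6 of 6 mesothelial markers were highest. Only 5 of the 12 mesenchymal and 0 of the 12 endothelial markers were highest there. The part of these in the spread of the 8 genes was not tested.

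The level of cell type markers was set beside that of the 8 genes, whose own rise was fixed by their choice. Together the 8 summed to 20.9 to 22.7 CPM in AT2-CTRL and 162, 294 and 368 CPM in AT2-CAB, which was 7.33, 13.3 and 16.7 times the AT2-CTRL mean. The 10 AT2 markers summed to 117500 to 132600 CPM in AT2-CTRL and 100300 to 112200 in AT2-CAB. The 12 AT1 markers summed to 4102 to 5016 and 4435 to 5045 CPM. The 12 endothelial markers summed to 361 to 811 CPM against 686 to 1148, the 12 mesenchymal markers to 508 to 688 against 647 to 799, and the 10 pericyte and smooth muscle markers to 61.8 to 86.2 against 78.8 to 118. The airway list summed to 725 to 919 CPM against 842 to 1225, the mesothelial list to 81.5 to 98.8 against 81.2 to 140, and the neuroendocrine list, of which 2 of 7 genes passed the filter, to 4.49 to 5.87 against 4.42 to 7.62. The endothelial (*Pecam1*), mesenchymal (*Col1a1*) and pericyte (*Pdgfrb*) defining markers were present at 42.3 to 115 CPM, 25.7 to 51.8 CPM and 10.6 to 35.9 CPM over the 6 libraries, and the basal cell keratin *Krt5* was at 0 in all 6. *Tppp3*, an airway cilia marker, was itself higher in AT2-CAB, with means of 96.5 CPM in AT2-CTRL and 348 CPM in AT2-CAB (log2 fold change 1.85). The part of these cell types in the levels of the 8 genes was not tested.

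**Figure D3:**
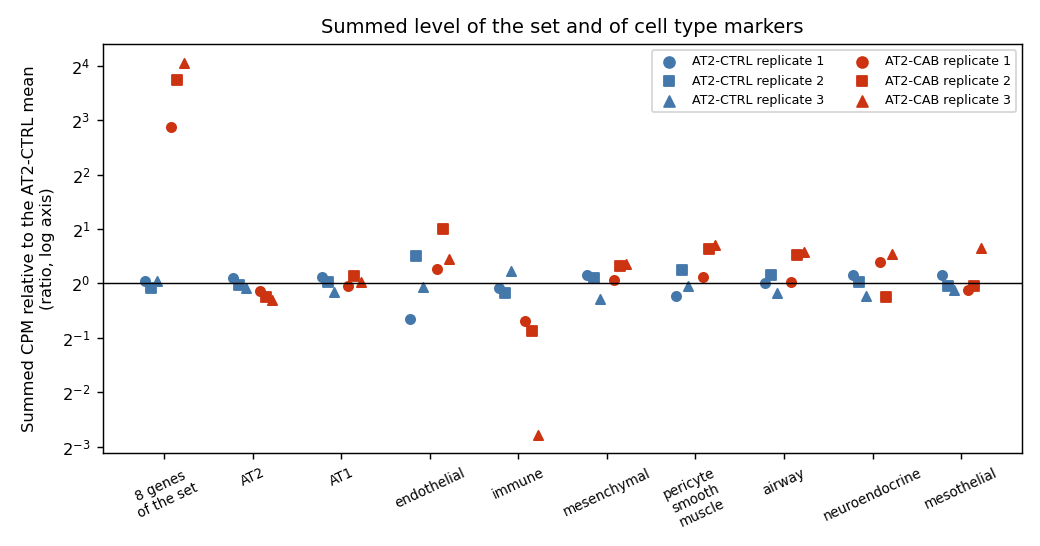
Summed CPM of the 8 genes and of each cell type marker list in every library, divided by the mean of the 3 AT2-CTRL libraries, on a log axis. The 8 genes, chosen for their rise, reach 7.33 to 16.7 times the AT2-CTRL mean in AT2-CAB. Of the marker lists the immune list spreads most, down to 0.146 times in AT2-CAB replicate 3. That sum is made up mostly of *Lyz1*, and 12 of the 15 immune markers tested had a positive log2 fold change.

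The genes whose levels followed those of the set most closely over the 6 libraries were ranked by the root mean square difference of centred log2 CPM. This measure includes the difference between the groups that the set was chosen on. For *Susd2* the nearest were *Id3* (0.280), *Atoh8* (0.371) and *Tmem91* (0.483), which brought a member and a pair of BMP targets together. For *Tmem91* they were *Susd2* (0.483), *Id3* (0.521) and the myosin gene *Myh7b* (0.564), and for *Adprhl1* they were *Id1* (0.281), the hedgehog ligand gene *Ihh* (0.358) and the proteoglycan gene *Bcan* (0.361). The nearest to *Tmem54* were *Dcpp3* (0.482), *Wfikkn2* (0.500) and *Id1* (0.572), of which *Dcpp3* had 0 counts in AT2-CTRL and a mean of 1.08 CPM in AT2-CAB. *Dpyd* was nearest to the dynamin gene *Dnm1* (0.152), the chloride channel gene *Ano1* (0.223) and *Tppp3* (0.234). *Ppp1r36* was nearest to *Dusp15* (0.239), *Hr* (0.323) and *Fxyd3* (0.328). The nearest gene to *Tcerg1l* and to *Fam19a4* was *Susd2*, at 0.911 and 0.711. It was followed by *Id3* (0.980) and the calcium channel gene *Cacna1g* (1.10) for *Tcerg1l* and by *Cacna1g* (0.839) and *Atoh8* (0.891) for *Fam19a4*. The measure is not scaled to a gene's range over the libraries, which was 8.02 log2 units for *Tcerg1l*, 6.58 for *Fam19a4* and 2.69 for *Dpyd*. The larger differences of *Tcerg1l* and *Fam19a4* are therefore not read as a distinct pattern.

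Genes close to the 8 on the chromosome were not chosen by their values and were tested. Within 100 kb lay 38 genes, of which 33 passed the filter, and 10 of these (30.3%) had all AT2-CAB values above all AT2-CTRL values, against 7.0% of all tested genes. Neighbours of 1 gene share a locus and are not independent of each other. Their median log2 fold change was 0.17, and 1 of the 33 was called by edgeR, with p-values adjusted over all genes, against 0.239% of all genes. This was *Tgfb1*, the gene of the cytokine TGF-β1, which starts 11.8 kb upstream of the start of *Tmem91*. It had 996, 1039 and 1144 counts in AT2-CTRL and 1831, 2321 and 3367 in AT2-CAB. The groups did not overlap and AT2-CAB replicate 3 was again the highest. The log2 fold change was 1.10 ± 0.13 (SE) (edgeR adjusted p = 0.0172). The adjusted p rose to 0.0739, 0.130 and 0.110 without AT2-CTRL replicates 1, 2 and 3 and to 0.0778 without AT2-CAB replicate 2.

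At the *Tmem91* locus 4 of 9 tested neighbours were separated in this way. Besides *Tgfb1* these were *B9d2* (0.56 ± 0.19, log2 fold change and SE), the glycosyltransferase gene *B3gnt8* (1.54 ± 0.42) and the receptor tyrosine kinase gene *Axl* (0.90 ± 0.21), which did not pass the test (edgeR adjusted p = 0.416, 0.293 and 0.217). Around *Ppp1r36* 3 of 6 were separated. The heat shock gene *Hspa2*, which starts 13.4 kb upstream, had 340, 248 and 212 counts in AT2-CTRL and 575, 1032 and 1540 in AT2-CAB, a log2 fold change of 1.78 ± 0.29 (SE) (edgeR adjusted p = 0.0726). *Zbtb25* (0.38 ± 0.29) and *Plekhg3* (0.55 ± 0.33) were the others. A single neighbour was separated near *Adprhl1* (*Tmco3*, 0.74 ± 0.16), *Susd2* (*Cabin1*, 0.20 ± 0.11) and *Fam19a4* (*Eogt*, 0.17 ± 0.12). None of the 6 tested neighbours of *Tmem54* was separated, *Hpca* included (0.63 ± 0.79), and *Tcerg1l* and *Dpyd* had no other gene of the table within 100 kb.

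**Figure D4:**
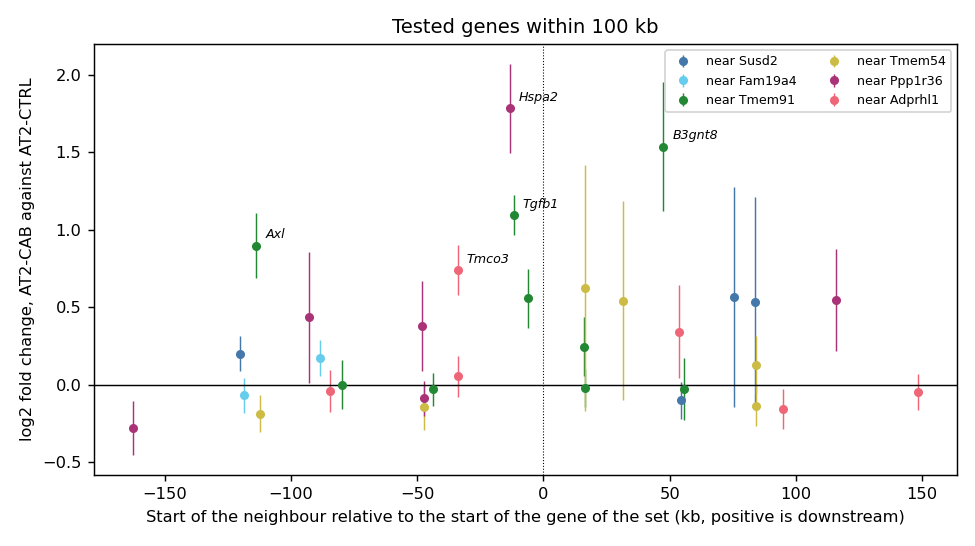
Log2 fold change with its SE for the 33 tested genes within 100 kb, against the distance in kb between the start of the neighbour and that of the gene of the set, in the direction of its transcription. Most points lie near 0, and *Hspa2* (1.78), *B3gnt8* (1.54) and *Tgfb1* (1.10) are the highest.

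Relatives and pathway partners of the 8 genes were tested in the same fit. Of 78 listed genes, 67 passed the filter, with a median log2 fold change of -0.0165. All AT2-CAB values lay above all AT2-CTRL values for 9 of the 67 and below them for 6. Over all 16723 tested genes these numbers were 1171 and 1692. The quasi-likelihood test of edgeR called 1 of the 67 higher, against 0.227% of all genes. This was *Ppp1r1b*, which encodes DARPP-32, an inhibitor of protein phosphatase 1, with 1657, 1328 and 1374 counts in AT2-CTRL and 2899, 4066 and 6797 in AT2-CAB. The groups did not overlap. The log2 fold change was 1.48 ± 0.21 (SE) (edgeR adjusted p = 0.0426). The adjusted p rose to 0.0831, 0.240 and 0.194 without AT2-CTRL replicates 1, 2 and 3, to 0.131 without AT2-CAB replicate 2 and to 0.0561 with upper-quartile scaling.

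Among the protein phosphatase 1 genes, 38 of 41 were tested, and the catalytic subunits had log2 fold changes of -0.03 ± 0.11 for *Ppp1ca*, -0.25 ± 0.10 for *Ppp1cb* and -0.14 ± 0.11 for *Ppp1cc*. The highest of that list per kb, the inhibitor gene *Ppp1r14c*, had -0.43 ± 0.16. The splicing factor gene *Prpf40b*, the highest per kb of the list set beside *Tcerg1l*, had -0.03 ± 0.11. In the sushi domain list, *Susd6*, the highest per kb, had -0.12 ± 0.17, and *Susd1* had 0.90 ± 0.24 (edgeR adjusted p = 0.287).

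In the TAFA family, *Fam19a5*, the highest per kb in AT2-CTRL, had means of 2.89 CPM in AT2-CTRL and 1.58 CPM in AT2-CAB (log2 fold change -0.87 ± 0.39, edgeR adjusted p = 0.528). In the CD225 family, 8 of 13 were tested. Of these, 7 had a positive log2 fold change (median 0.63), as did 8160 of all 16723 tested genes. The groups were separated for 2 of the 8, *Prrt1* (1.71 ± 0.79) and *Ifitm1* (1.00 ± 0.39). *Prrt1* had only 1, 3 and 11 counts in AT2-CTRL. None of the 8 was called (edgeR adjusted p = 0.535 for *Prrt1* and 0.471 for *Ifitm1*). The 1 gene with a negative value was *Ifitm2*, an antiviral membrane protein gene and the highest per kb (-0.16 ± 0.12). In pyrimidine breakdown, *Dpys*, the enzyme after *Dpyd*, did not pass the filter. *Upb1*, the last step, was at means of 0.373 and 0.811 CPM (1.12 ± 0.84, edgeR adjusted p = 0.696), and *Tymp*, which releases thymine from thymidine, had -0.01 ± 0.50. Of the ADP-ribose hydrolases, *Adprh*, the active relative of *Adprhl1*, had 0.25 ± 0.13 (edgeR adjusted p = 0.573), and *Macrod1*, the highest per kb, had -0.21 ± 0.13.

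**Figure D5:**
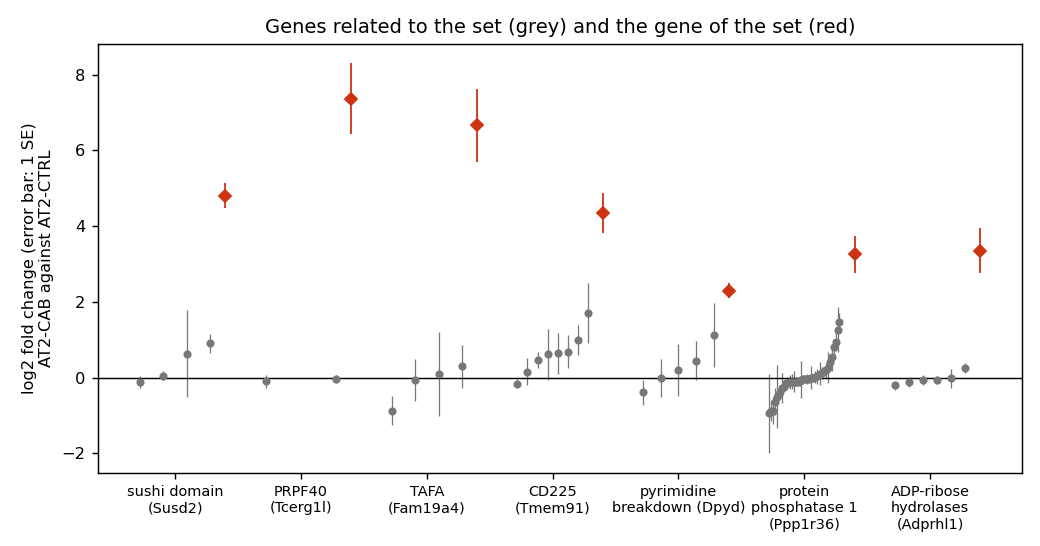
Log2 fold change with its SE for the 67 tested relatives and partners (grey), grouped by list, and for the gene of the set that each list belongs to (red). The relatives have a median of -0.0165 over all lists and run from -0.95 (*Ppp1r1c*) to 1.71 (*Prrt1*). The red points lie from 2.30 (*Dpyd*) to 7.37 (*Tcerg1l*). They were chosen for their rise, so nothing is read from their distance to the grey points. *Tmem54* has no list.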

How the data were processed

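Poly(A) RNA of lineage-labeled, FACS-sorted AT2s was sequenced as paired reads from 3 mice of each genotype. The authors trimmed the reads, aligned them to mm10 with Hisat2, removed duplicate reads with SAMtools and counted reads on genes with featureCounts 1.5.3. The deposited values are raw counts per gene, without normalization. Per the file headers no option for strand, read pairs or overlapping genes was set, so reads of a pair were counted singly and those that fell on more than 1 gene were not counted. The study's methods describe the counts as fragment numbers, which differs from the headers.

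The quasi-likelihood test of edgeR 4.0.16 (R 4.3.3) was fitted to all 6 libraries without covariates, after TMM scaling and edgeR's filter on low counts (minimum 10). Benjamini-Hochberg adjustment ran over the 16723 genes that passed. A call needed an adjusted p below 0.05 and an absolute log2 fold change above 1. The script was tested on simulated counts. DESeq2 1.42.0, which the study's methods name, and limma-voom (limma 3.58.1) were alternatives, with other scalings and filters, covariates for age, replicate number and Y-linked reads, 4 libraries, halved counts and each library left out. No pair of libraries of a group agreed within sampling noise. Log2 CPM for profiles used a prior count of 2.

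The 8 genes and all lists were chosen with earlier results of these data known. The genes named are the 8, *Bmpr1a*, BMP targets, neighbours within 100 kb that were called or overlap, related genes that were called or highest per kb in a list, the 3 nearest profiles and defining markers. Other names, such as the genes just below *Dpyd*, further neighbours and relatives, *Lyz1* and *Tppp3*, were chosen after their values were seen. Coordinates are those of the deposited table, and overlaps were also read from GENCODE M21. A gene of the related lists is not reported here and was left out of their counts.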

Additional observations from a re-analysis of the deposited data

How the results depend on the processing

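The log2 fold changes of the 8 genes kept their sign under all 18 alternatives. Their median, 4.11, ranged from 3.84 to 4.45 with 1 library left out, and that of the BMP targets, 1.33, from 1.09 to 1.55. The count of the 8 called higher was 6, and it was 2 with limma-voom, 8 with DESeq2 and 1 to 7 with 1 library left out (1 without AT2-CTRL replicate 2). Over all genes, 38 higher became 119 with DESeq2, 25 with limma-voom, 108 with the Y-linked covariate and 6 to 59 with 1 library left out. The 2 lower became 1 with upper-quartile scaling, library size only, at least 30 counts in 3 libraries, limma-voom and the age covariate, 5 without a filter, 25 with DESeq2, 34 with the Y-linked covariate, 8 in the 4 libraries without Y-linked reads and 0 to 4 with 1 library left out. The 1 neighbour called became 2 without a filter and with the Y-linked covariate, 3 with DESeq2 and in the 4 libraries, and 0 to 2 with 1 library left out, and stayed at 1 with windows of 50 and 250 kb. The 1 related gene called became 0 with upper-quartile scaling and 0 to 1 with 1 library left out. The cause of these shifts was not tested. The paper, which used DESeq2, reports 119 genes raised and 25 lowered more than 2-fold. The median log2 fold change of all genes was -0.0096, and 0.12 with library size only, which raises all values by about that much.

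The replicate numbers do not pair the libraries. Same-numbered libraries had correlations of deviations from the group mean of -0.23, 0.20 and -0.53. AT2-CTRL replicates 1 and 3 were nearest to AT2-CAB replicates 3 and 2 (0.62 and 0.50). AT2-CTRL replicate 1 and AT2-CAB replicate 3 shared an age of 12 weeks and Y-linked reads. AT2-CTRL replicate 3 and AT2-CAB replicate 2 shared that age without Y-linked reads. AT2-CTRL replicate 2 and AT2-CAB replicate 1, both from 16-week-old mice without Y-linked reads, had 0.11. No fit used these matches, and the replicate block joined libraries by number only, so its calls do not show what they would give. With the replicate block, 4 of the 8 genes were called higher, 5 genes were called lower over all genes, and 0 neighbours and 0 related genes were called, with adjusted p values in edgeR's test of 0.0629 for *Tgfb1* and 0.121 for *Ppp1r1b*.

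Depth limits *Fam19a4* and *Tcerg1l* most, with 3 and 5 counts over the 3 AT2-CTRL libraries.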
